A study of Mus musculus with 4 samples.

Results

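Transcripts of 33 genes of antioxidant defence and glutathione metabolism were followed in mouse embryonic stem (ES) cells with and without p53 and with and without a DNA-damaging drug. The members were a named list: glutathione peroxidases, peroxiredoxins, thioredoxins, superoxide dismutases, catalase, the enzymes of glutathione supply, 2 glutathione transferases and the Nrf2 pathway. All 33 had transcript rows in the deposited tables (40 of 30769 rows), out of 22408 genes named there. The 4 groups were untreated p53+/+ cells, p53+/+ cells given Adriamycin, untreated p53-/- cells and p53-/- cells given Adriamycin, with 1 library each. Adriamycin, another name for doxorubicin, is an anthracycline that leaves topoisomerase II locked on cut DNA, and it was given at 0.5 uM for 8 h. All cells shared a C57BL/6X129Sv mix background, were below passage 20, and grew in a medium with serum, leukemia inhibitory factor and 2-mercaptoethanol, a thiol reductant. How the p53-/- line was made, and whether it is a single clone, is not given in the sources used here.

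These genes encode the enzymes that remove superoxide and peroxides and that keep glutathione and thioredoxin reduced. Superoxide dismutases turn superoxide into hydrogen peroxide, which catalase, the glutathione peroxidases and the peroxiredoxins then break down. For most of the glutathione peroxidases and peroxiredoxins the electrons come from NADPH through glutathione or thioredoxin. Many of the genes are targets of the transcription factor Nrf2 (gene Nfe2l2), which the adaptor Keap1 holds at a low level until thiols on Keap1 are oxidised. p53 is also known to act on redox genes, in both directions, and anthracyclines such as Adriamycin are known to cycle electrons to oxygen.

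Levels are given as FPKM, fragments scaled to transcript length and library size, summed over the transcript rows of a gene. The 4 libraries held 3.34 to 4.32 gigabases of aligned sequence, with 11424 to 12292 genes at 1 FPKM or more. Differences were taken between values of log2(FPKM + 1), a scale that shrinks the change of weakly expressed genes, and a difference of 1 or more in size counted as higher or lower. Without replicates no difference could be tested. Trp53, the gene targeted in the p53-/- cells, stood at 216 FPKM in untreated p53+/+ and 165 FPKM in treated p53+/+ cells, and at 78.6 and 76.5 FPKM in the p53-/- libraries, so its transcripts were lower but present. Mdm2, a p53 target, went from 32.6 to 257 FPKM in p53+/+ and from 17.7 to 19.9 FPKM in p53-/- cells. The ES marker transcripts were high in every library, with 6 markers summing to between 2169 and 3646 FPKM. All 6 were lower in treated than in untreated p53+/+ cells, and 5 of 6 were so in p53-/- cells. Nanog stood at 310.0 and 105 FPKM in p53+/+ and at 194 and 166 FPKM in p53-/- cells, and Zfp42 at 289 and 84.7 FPKM and at 307 and 164 FPKM. The part of this in the responses below was not tested.

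The p53-/- libraries also held transcripts used as markers of other cell types. All 8 fibroblast markers were higher there, with sums of 7.08 (untreated) and 11.7 FPKM (treated) in p53+/+ and of 295 and 251 FPKM in p53-/- cells. Among them the defining markers Col3a1, Postn and Dcn were listed at 0 in both p53+/+ libraries. The 6 trophoblast markers summed to 22.5, 21.8, 58.2 and 51.7 FPKM in the same order, most of it Krt8 and Krt18. Krt18 stood at 10.05 FPKM in untreated p53+/+ and at 31.1 FPKM in untreated p53-/- cells. Eomes alone went the other way there, at 3.16 and 1.85 FPKM, and Cdx2 and Gata3 stayed below 1 FPKM in every library. The 6 primitive endoderm markers summed to 171, 190.2, 194 and 207 FPKM, nearly all of it Sparc, which was higher in p53-/- cells. Gata4, Gata6, Dab2, Sox17 and Foxa2 were all lower in p53-/- cells in both conditions, though Foxa2 stayed below 1 FPKM throughout. Gata4 stood at 5.32 and 5.05 FPKM in p53+/+ and 0.529 and 0.753 FPKM in p53-/- cells. Dab2 stood at 8.88 and 6.09 FPKM against 1.14 and 1.47 FPKM. In bulk RNA a different share of cells of a type and a different level per cell cannot be told apart, and the part of these markers in the genotype differences below was not tested.

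Most of the antioxidant genes were well expressed ES cell transcripts. Their median level lay between 25.8 and 30.5 FPKM in the 4 libraries, against 7.84 to 9.22 FPKM over all 13014 genes that reached 1 FPKM in at least 1 library. All 33 members passed that filter, and 30 of them were at 1 FPKM or more in every library. The exceptions were Sod3, Slc7a11 and Gpx8. Gpx1, Gpx4, Prdx1, Prdx2, Txn1, Txnrd1, Sod1 and Gsta4 stood at 100 FPKM or more in every library.

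**Figure D1:**
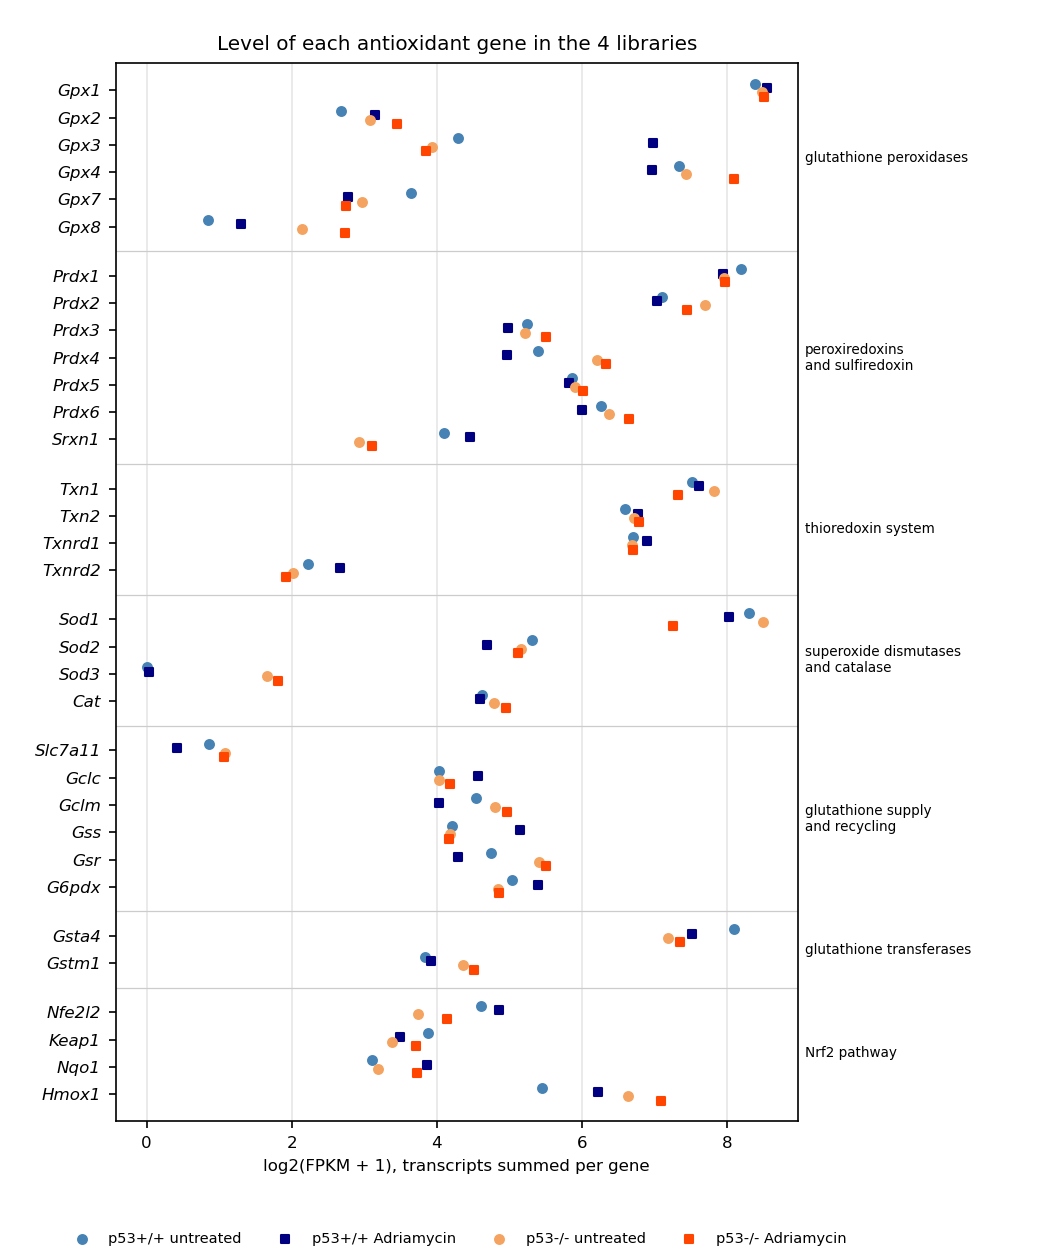
Level of each of the 33 genes in the 4 libraries, on the log2(FPKM + 1) scale with transcripts summed per gene. Circles are untreated and squares Adriamycin-treated libraries, blue for p53+/+ and orange for p53-/-. The treated p53+/+ library stands far from the other libraries in Gpx3, and the treated p53-/- library does so in Sod1 and Gpx4.

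In p53+/+ cells Adriamycin was accompanied by a large difference in 1 member, Gpx3, and by smaller ones elsewhere. Of the 33 genes 1 was higher by at least 1, against 11.4% of all genes, and 0 were lower, against 2.78%. At a step of 1.5-fold, 4 were higher (Gpx3, Gss, Hmox1 and Nqo1), where the share of all genes was 21.7%, and 2 were lower (Gpx7 and Sod2), where it was 11.3%. The median of the members was 0.03, beside 0.05 over all genes, and 17 lay above 0 and 16 below, where 53.9% and 46.0% of all genes did. As a group these genes thus did not stand above the background of this comparison.

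Without p53, Sod1 was the only member that differed by at least 1 between treated and untreated cells, and it was lower. That is 1 of 33 lower, beside 0.461% of all genes, and 0 of 33 higher, beside 0.377%. At the 1.5-fold step Gpx4 and Gpx8 were higher as well (2 of 33, beside 1.59%), and Sod1 remained the only member lower (1 of 33, beside 1.48%). The members' median was 0.13, beside 0.07 over all genes, and 24 members lay above 0 and 9 below, where 64.5% and 35.4% of all genes did.

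Between the genotypes more members differed. In untreated cells 3 members were higher in p53-/- cells (Sod3, Gpx8 and Hmox1), beside 3.51% of all genes, and 1 was lower (Srxn1), beside 3.14%. After Adriamycin 5 were higher in p53-/- cells (Sod3, Gpx8, Prdx4, Gsr and Gpx4), beside 6.72%, and 2 were lower (Gpx3 and Srxn1), beside 13.0%. Sod3 and Slc7a11 reached 1 FPKM only in the p53-/- libraries, so they passed the filter only through the genotype in which they were higher. Slc7a11 is among the genes higher at the 1.5-fold step in treated cells. At the 1.5-fold step 6 were higher and 4 lower in untreated cells, beside 10.3% and 11.0% of all genes, and 10 were higher and 6 lower in treated cells, beside 17.7% and 23.4%. In both conditions 19 members lay above 0 and 14 below. Of all genes 45.3% lay above and 54.6% below 0 without treatment, and 49.0% and 51.0% with it. The medians of the members were 0.09 and 0.18 in untreated and treated cells, beside -0.05 and -0.02 over all genes.

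When the p53-/- response was subtracted from the p53+/+ response, 1 of 33 members exceeded 1 (Gpx3, beside 10.4% of all genes) and 1 lay at -1 or below (Gpx4, beside 3.29%). Gpx4 did not reach that step under median ratio scaling or quantile normalization. At the 1.5-fold step 4 were higher (Gpx3, Sod1, Gss and Txn1) and 5 lower (Gpx4, Gsta4, Keap1, Gclm and Gpx7), beside 19.9% and 13.8%. Above 0 lay 15 members and below it 18, where 49.2% and 50.8% of all genes did. The median was -0.12, beside -0.01 over all genes. This difference uses the same libraries as the comparisons above and adds no independent evidence to them.

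**Figure D2:**
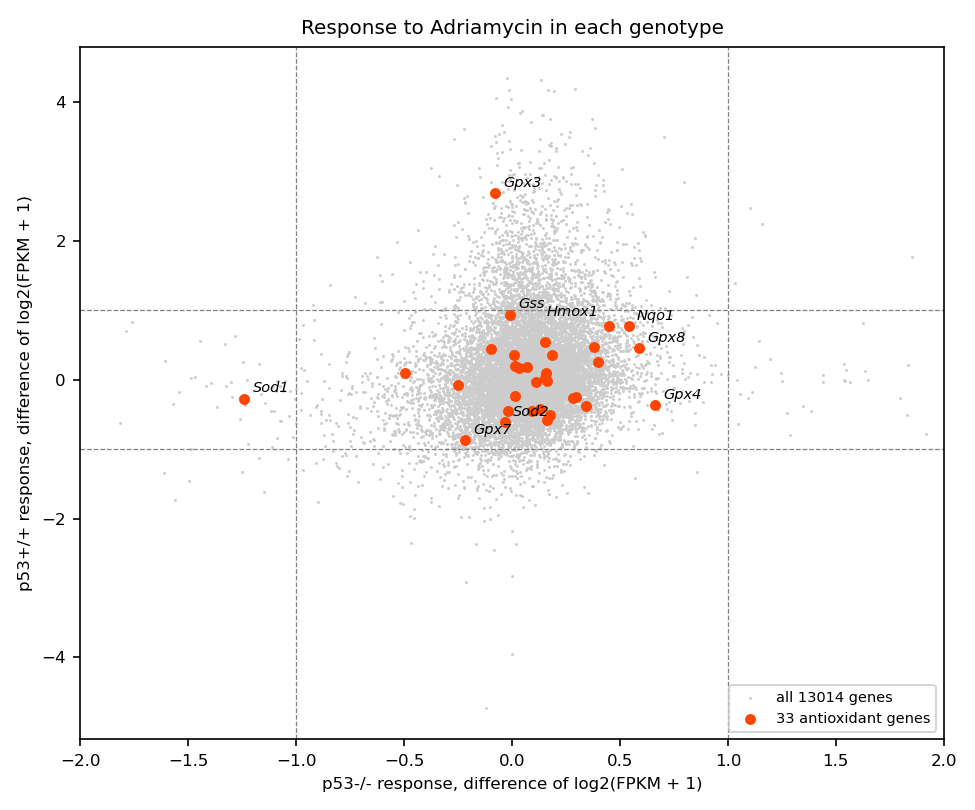
Response to Adriamycin in p53-/- cells (horizontal axis) and in p53+/+ cells (vertical axis), as differences of log2(FPKM + 1). Grey points are all 13014 genes, some of which lie outside the horizontal axis, and orange points the 33 antioxidant genes. The dashed lines mark differences of 1. Gpx3 lies above the upper line and Sod1 beyond the left line, and the other 31 members lie between the lines.

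Most of the glutathione peroxidases reduce hydrogen peroxide or lipid peroxides with glutathione, and several carry selenocysteine in the active site. Gpx3, the secreted plasma form (chromosome 11, 54716356 to 54723884 in mm9), was at 18.6 FPKM before and 125 FPKM after treatment of p53+/+ cells, and at 14.3 and 13.5 FPKM in the p53-/- libraries. Only the treated p53+/+ library was high, and the others lay between 13.5 and 18.6 FPKM. The p53+/+ response was a difference of 2.69, or 6.74-fold in FPKM, the 118th highest of 13014 genes. In p53-/- cells the difference was -0.08. The deposited bounds of the treated p53+/+ value were 107 to 116 FPKM, so the FPKM lay above its own upper bound, and the lower bound was still above the bounds of every other library. The genotypes differed by -0.36 without treatment and by -3.12 with it.

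The promoter of Gpx3 is shown because it is the member with the largest response. It is the stretch of 250 bases before the annotated start, from RefSeq, build GRCm38.p6, chr11:54902604-54902853 on the plus strand.
Gpx3: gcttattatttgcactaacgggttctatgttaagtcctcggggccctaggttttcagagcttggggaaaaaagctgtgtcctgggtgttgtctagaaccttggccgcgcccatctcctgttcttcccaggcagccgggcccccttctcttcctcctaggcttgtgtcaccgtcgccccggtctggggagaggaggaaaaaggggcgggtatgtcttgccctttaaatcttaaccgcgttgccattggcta
The table of promoter windows, each with 250 bases before and 50 after a start, held windows for 27 of the 33 genes. Prdx6, Sod3, Gclc, Gsr, Gsta4 and Hmox1 had none. Every window was searched on both strands for TGACNNNGC, the core of the antioxidant response element that Nrf2 binds with small Maf proteins. It was also searched for the p53 decamer, which is only part of a full p53 binding site. The window of Gpx3 held neither set of letters. The antioxidant core was found in 7 of 27 members (25.9%), namely Prdx1, Srxn1, Txnrd1, Sod1, Gclm, G6pdx and Nfe2l2, and in 14.0% of all 27025 genes with a window. The p53 decamer was found in 3 of 27 members (11.1%), Prdx4, Txn2 and G6pdx, and in 9.55% of all genes. In G6pdx both were present and did not overlap. These matches describe letters in short windows and do not show binding.

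Gpx4, which reduces lipid peroxides in membranes and restrains ferroptosis, behaved differently from Gpx3. It was at 160.4 FPKM before and 125 FPKM after treatment of p53+/+ cells, and at 172 and 273 FPKM in p53-/- cells. The treated p53-/- library was the highest of the 4, and the responses were -0.36 in p53+/+ and 0.66 in p53-/- cells. Nearly all of it came from 1 transcript, NM_008162, at 268 FPKM (deposited bounds 259 to 280) in the treated p53-/- library and 168 FPKM (159.8 to 177) in the untreated one. The other row, NM_001037741, whose deposited start lies inside the span of the first, stayed between 3.86 and 5.57 FPKM. A pseudogene, Gpx4-ps2, matches the Gpx4 transcript at 99.7% identity over 79.5% of its length, and the deposited tables have no row under that name. The Gpx4 values are therefore uncertain, and the part of the copy in them was not tested.

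The other glutathione peroxidases did not differ by 1 with treatment in either genotype. Gpx1, the abundant cytosolic form, stood at 335 and 375 FPKM in p53+/+ and at 356 and 365 FPKM in p53-/- cells, and its largest difference was 0.16. Gpx2, the form known from the gut epithelium, has a pseudogene copy (Gpx2-ps1, 98.1% identity over 53.6% of its transcript) and stood at 5.44 and 7.89 FPKM in p53+/+ and at 7.43 and 9.96 FPKM in p53-/- cells, with responses of 0.47 and 0.38. Gpx7, a peroxidase of the endoplasmic reticulum, went from 11.6 to 5.85 FPKM in p53+/+ and from 6.81 to 5.72 FPKM in p53-/- cells. For Gpx7 the untreated p53+/+ library was the high one, and the response there was -0.88. That untreated value lay above its own upper bound of 11.4 FPKM. Gpx8, the other peroxidase of the endoplasmic reticulum, separated the genotypes instead. It stood at 0.797 FPKM (deposited bounds 0.394 to 1.18) and 1.46 FPKM in p53+/+ cells, and at 3.43 FPKM (2.24 to 4.25) and 5.67 FPKM in p53-/- cells. Its genotype differences were 1.30 without and 1.44 with treatment. The part of the fibroblast markers in these, as in those of the other members, was not tested.

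The peroxiredoxins reduce peroxides through a reactive cysteine, and sulfiredoxin (Srxn1) repairs them when that cysteine is overoxidised. All 6 peroxiredoxin genes lay below 0 in the p53+/+ response, between -0.04 and -0.43, where 46.0% of all genes did. None reached the 1.5-fold step. In p53-/- cells 5 of the 6 lay above 0, by at most 0.30, where 64.5% of all genes lay above 0. Prdx1 stood at 291, 246, 248 and 251 FPKM in untreated and treated p53+/+ and untreated and treated p53-/- cells. Only the untreated p53+/+ library was apart. Prdx2, which is cytosolic like Prdx1, stood at 137, 131, 207 and 174 FPKM in that order. The p53-/- libraries were higher than the p53+/+ libraries for Prdx2, by 0.59 and 0.41. Prdx3, the mitochondrial enzyme, stood at 36.8, 30.7, 36.2 and 44.7 FPKM. Prdx5, found in several compartments, stood at 57.3, 55.9, 58.8 and 63.6 FPKM. Prdx6, which also acts on phospholipid peroxides, stood at 76.2, 63.0, 81.9 and 99.8 FPKM. In Prdx3, Prdx5 and Prdx6 the treated p53+/+ library was the lowest and the treated p53-/- library the highest. Prdx6b, a copy of Prdx6, matches 60.2% of its transcript at 90.1% identity.

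Prdx4 and Srxn1 were the members of this group that differed by at least 1 between the genotypes in at least 1 condition. Prdx4, which works in the endoplasmic reticulum, stood at 41.1 and 30.2 FPKM in p53+/+ cells and at 72.8 and 79.7 FPKM in p53-/- cells. Both p53-/- libraries were higher than both p53+/+ libraries, and the differences were 0.81 without and 1.37 with treatment. The Prdx4 FPKM lay above its own upper bound in every library, as did those of Prdx2, Prdx3, Prdx5 and Prdx6. Srxn1 (chromosome 2, 151931260 to 151937112 in mm9) went the other way, at 16.2 FPKM (deposited bounds 14.4 to 16.9) and 20.96 FPKM (18.8 to 21.5) in p53+/+ and at 6.60 FPKM (5.64 to 7.36) and 7.63 FPKM (6.55 to 8.29) in p53-/- cells. The bounds of the genotypes did not overlap, and the differences were -1.18 and -1.35. Srxn1 was 2.46-fold and 2.75-fold higher in p53+/+ cells. Treatment itself moved it by 0.35 and 0.18.

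The promoter of Prdx1 (chr4:116685349-116685598, plus strand, GRCm38.p6, from RefSeq) is shown as an example of a member with the antioxidant core whose level hardly moved. The capitals mark the core, which lies on the opposite strand.
Prdx1: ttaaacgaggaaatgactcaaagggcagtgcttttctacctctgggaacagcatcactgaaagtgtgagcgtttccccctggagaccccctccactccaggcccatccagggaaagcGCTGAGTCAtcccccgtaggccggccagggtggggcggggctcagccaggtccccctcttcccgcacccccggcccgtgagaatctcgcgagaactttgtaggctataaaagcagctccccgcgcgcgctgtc
In Srxn1 the match lay after the annotated start, so that stretch is not printed.

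The thioredoxin system carries electrons from NADPH to most of the peroxiredoxins. Its 4 genes all lay above 0 in the p53+/+ response, where 53.9% of all genes did, between 0.10 and 0.43, and none reached the 1.5-fold step in a response. Txn1, the cytosolic thioredoxin, stood at 182 and 196 FPKM in p53+/+ and at 226 and 160.0 FPKM in p53-/- cells, where its response was -0.50. Txn2, the mitochondrial form, stayed between 95.5 and 110 FPKM. Txnrd2, the mitochondrial reductase, stood at 3.68 and 5.32 FPKM in p53+/+ and at 3.04 and 2.78 FPKM in p53-/- cells. The treated p53+/+ library was the highest for Txnrd2, and the treated genotypes differed by -0.74.

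Txnrd1, the cytosolic thioredoxin reductase, kept its sum while its transcripts changed places. The sum was 104 and 118 FPKM in p53+/+ and 103 and 104 FPKM in p53-/- cells. In p53+/+ cells NM_001042513 went from 46.8 FPKM (deposited bounds 44.7 to 49.1) to 79.8 FPKM (77.4 to 83.3). In the same cells NM_015762 went from 55.9 FPKM (53.5 to 58.7) to 36.9 FPKM (34.9 to 39.1). The first of these thus made up 45.1% of the gene's FPKM before and 67.4% after treatment in p53+/+ cells, and 58.1% and 57.0% in p53-/- cells. Both rows have the same deposited start and end (chromosome 10, 82321951 to 82360469 in mm9) and lengths of 3417 and 3310 bases, so the split rests on the assignment of reads to nearly identical transcripts. The other 2 rows stayed at or below 2.16 FPKM.

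**Figure D3:**
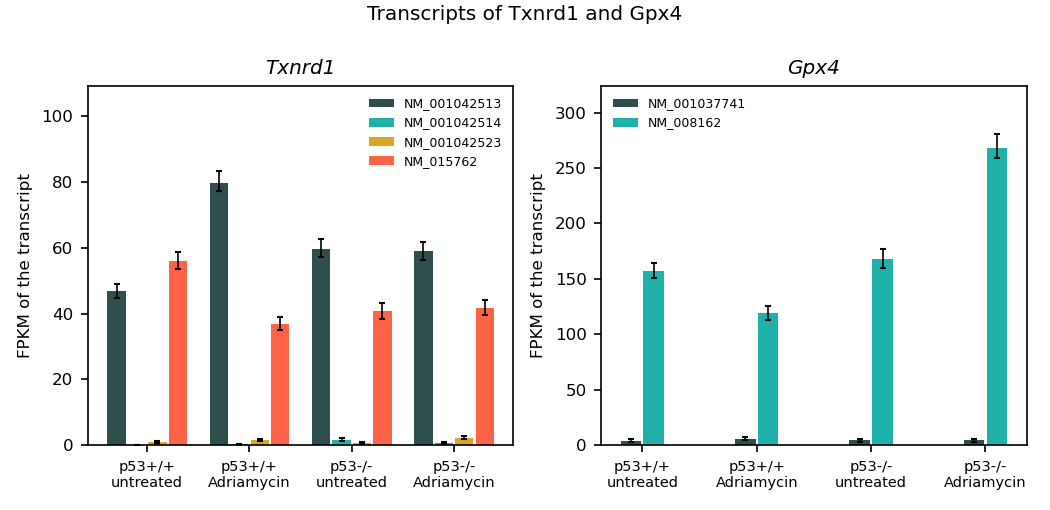
FPKM of each transcript row of Txnrd1 (left) and Gpx4 (right) in the 4 libraries, with the deposited bounds as error bars. In Txnrd1 the order of the 2 main transcripts turns between the untreated (46.8 and 55.9 FPKM) and the treated p53+/+ library (79.8 and 36.9 FPKM), and in Gpx4 the main transcript is highest in the treated p53-/- library (268 FPKM).

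Sod1, the cytosolic copper and zinc superoxide dismutase (chromosome 16, 90220987 to 90226569 in mm9), stood at 316 and 261 FPKM in p53+/+ and at 360 and 152 FPKM in p53-/- cells. Only the treated p53-/- library was low, by 2.37-fold against the untreated one, a difference of -1.24 and the 33rd lowest of all genes there. In every library the Sod1 FPKM lay above its own upper bound. A pseudogene, Gm8566, matches 72.5% of the Sod1 transcript at 97.8% identity and has no row under that name, so this value is uncertain, and the part of the copy was not tested. Sod2, the mitochondrial manganese enzyme, went from 38.7 FPKM (deposited bounds 35.7 to 38.9) to 24.9 FPKM (22.9 to 25.5) in p53+/+ cells and stayed at 34.8 and 34.0 FPKM in p53-/- cells. The treated p53+/+ library was thus the low one for Sod2, with a response of -0.61. Cat, the peroxisomal catalase, lay between 23.2 and 30.1 FPKM. Sod3, the extracellular enzyme, was listed at 0 and 0.0203 FPKM in p53+/+ cells, and it stood at 2.16 FPKM (deposited bounds 1.64 to 2.68) and 2.51 FPKM (1.92 to 3.04) in p53-/- cells. Its genotype differences were 1.66 without and 1.78 with treatment. As for the other members, the part of the fibroblast markers in them was not tested.

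Glutathione is made from cystine, taken up by the exchanger Slc7a11, by glutamate-cysteine ligase (catalytic subunit Gclc, modifier Gclm) and glutathione synthetase (Gss), and is kept reduced by glutathione reductase (Gsr) with NADPH, to which G6pdx contributes. Gss (chromosome 2, 155388919 to 155418442 in mm9) stood at 17.6 and 34.6 FPKM in p53+/+ and at 17.1 and 17.0 FPKM in p53-/- cells. The treated p53+/+ library alone was high, by 1.96-fold, a difference of 0.93 that did not reach 1. That treated value lay above its own upper bound of 34.2 FPKM. Gclc went from 15.4 FPKM (deposited bounds 13.9 to 16.1) to 22.8 FPKM (20.7 to 23.4) in p53+/+ and from 15.3 to 17.1 FPKM in p53-/- cells. Gclm, its partner, moved the other way in p53+/+ cells, from 22.3 FPKM (19.3 to 22.6) to 15.4 FPKM (13.2 to 16.03), and from 26.9 to 30.5 FPKM in p53-/- cells. The subunits of this enzyme thus had responses of opposite sign in p53+/+ cells, 0.54 for Gclc and -0.51 for Gclm, both short of the 1.5-fold step.

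The promoters of Gclm and Gss are shown as a contrast: the first holds the antioxidant core, in capitals and on the opposite strand, and the second holds no match in its window. They lie at chr3:122245307-122245556 on the plus strand and chr2:155592811-155593060 on the minus strand of GRCm38.p6, and are taken from RefSeq.
Gclm: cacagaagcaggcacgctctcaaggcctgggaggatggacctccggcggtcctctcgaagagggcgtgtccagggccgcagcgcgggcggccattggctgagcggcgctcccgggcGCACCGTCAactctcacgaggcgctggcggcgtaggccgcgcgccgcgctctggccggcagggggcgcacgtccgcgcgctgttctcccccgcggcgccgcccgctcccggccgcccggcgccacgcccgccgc
Gss: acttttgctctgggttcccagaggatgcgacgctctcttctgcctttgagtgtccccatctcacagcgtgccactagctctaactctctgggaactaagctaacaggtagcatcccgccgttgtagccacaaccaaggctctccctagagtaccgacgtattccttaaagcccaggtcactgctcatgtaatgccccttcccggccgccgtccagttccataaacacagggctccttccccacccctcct
Gss, without the core in its window, was higher in treated p53+/+ cells, and Gclm, with it, was lower there. Nothing about Nrf2 follows from a match or its absence in so short a stretch.

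Gsr separated the genotypes. It stood at 25.8 and 18.6 FPKM in p53+/+ and at 41.5 and 44.3 FPKM in p53-/- cells, with differences of 0.67 without and 1.21 with treatment. The treated p53-/- value lay above its own upper bound of 44.2 FPKM. Both p53-/- libraries were above both p53+/+ libraries. G6pdx, which opens the pentose phosphate pathway, stood at 31.9 and 41.1 FPKM in p53+/+ and at 27.9 and 28.1 FPKM in p53-/- cells. Its copy G6pd2 matches 87.5% of the transcript at 93.2% identity, so the split of reads between them is uncertain. Slc7a11, which p53 is known to repress, was low throughout, at 0.824 FPKM (deposited bounds 0.706 to 0.938) and 0.339 FPKM (0.267 to 0.410) in p53+/+ and at 1.12 and 1.09 FPKM in p53-/- cells. The treated p53+/+ library was the lowest, and its bounds did not overlap those of the others. The Slc7a11 response was -0.45 after adding 1 FPKM, and it passed -1 after adding 0.1 FPKM in place of 1.

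The glutathione transferases join glutathione to electrophiles. Gsta4, which handles the lipid peroxidation product hydroxynonenal, stood at 273 and 183 FPKM in p53+/+ and at 145 and 163 FPKM in p53-/- cells. The untreated p53+/+ library was the highest, and the genotypes differed by -0.90 without treatment and -0.17 with it. Gstm1, a cytosolic transferase with a pseudogene copy (Gstm2-ps1, 97.9% identity over 51.0%), stood at 13.3 and 14.2 FPKM in p53+/+ and at 19.5 and 21.9 FPKM in p53-/- cells.

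Nfe2l2, which encodes Nrf2, stood at 23.4 FPKM (deposited bounds 20.6 to 23.6) and 28.1 FPKM (25.0 to 28.3) in p53+/+ and at 12.4 FPKM (10.7 to 13.4) and 16.7 FPKM (14.5 to 17.8) in p53-/- cells. Both p53-/- libraries lay below both p53+/+ libraries, with differences of -0.86 and -0.72. Keap1, its inhibitor, stood at 13.7 and 10.2 FPKM in p53+/+ and at 9.40 and 12.2 FPKM in p53-/- cells, and 88.0% to 95.4% of it came from 1 of its 4 transcript rows. Nqo1, a quinone reductase and standard Nrf2 target, went from 7.61 FPKM (6.02 to 8.11) to 13.6 FPKM (11.1 to 14.2) in p53+/+ and from 8.12 FPKM (6.40 to 9.15) to 12.3 FPKM (9.80 to 12.5) in p53-/- cells. The treated library was the higher in each genotype and the bounds did not overlap, with responses of 0.77 and 0.54. Hmox1, the heme oxygenase that is induced by heme and oxidants, went from 42.8 to 73.8 FPKM in p53+/+ and from 98.5 to 135 FPKM in p53-/- cells. Its lowest p53-/- value was above its highest p53+/+ value, and the genotypes differed by 1.18 without and 0.86 with treatment. In every library the Hmox1 FPKM lay above its own upper bound.

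Known Nrf2 targets were counted apart. Of 12 such genes, 7 lay above 0 in the p53+/+ response, where 53.9% of all genes did, and 11 in the p53-/- response, where 64.5% did. Their medians were 0.14 and 0.15, beside 0.05 and 0.07 over all genes, and 0 of them passed 1 in either direction. Between untreated genotypes 1 was higher in p53-/- cells (Hmox1), beside 3.51% of all genes, and 1 lower (Srxn1), beside 3.14%, and the median was 0.04, beside -0.05.

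**Figure D4:**
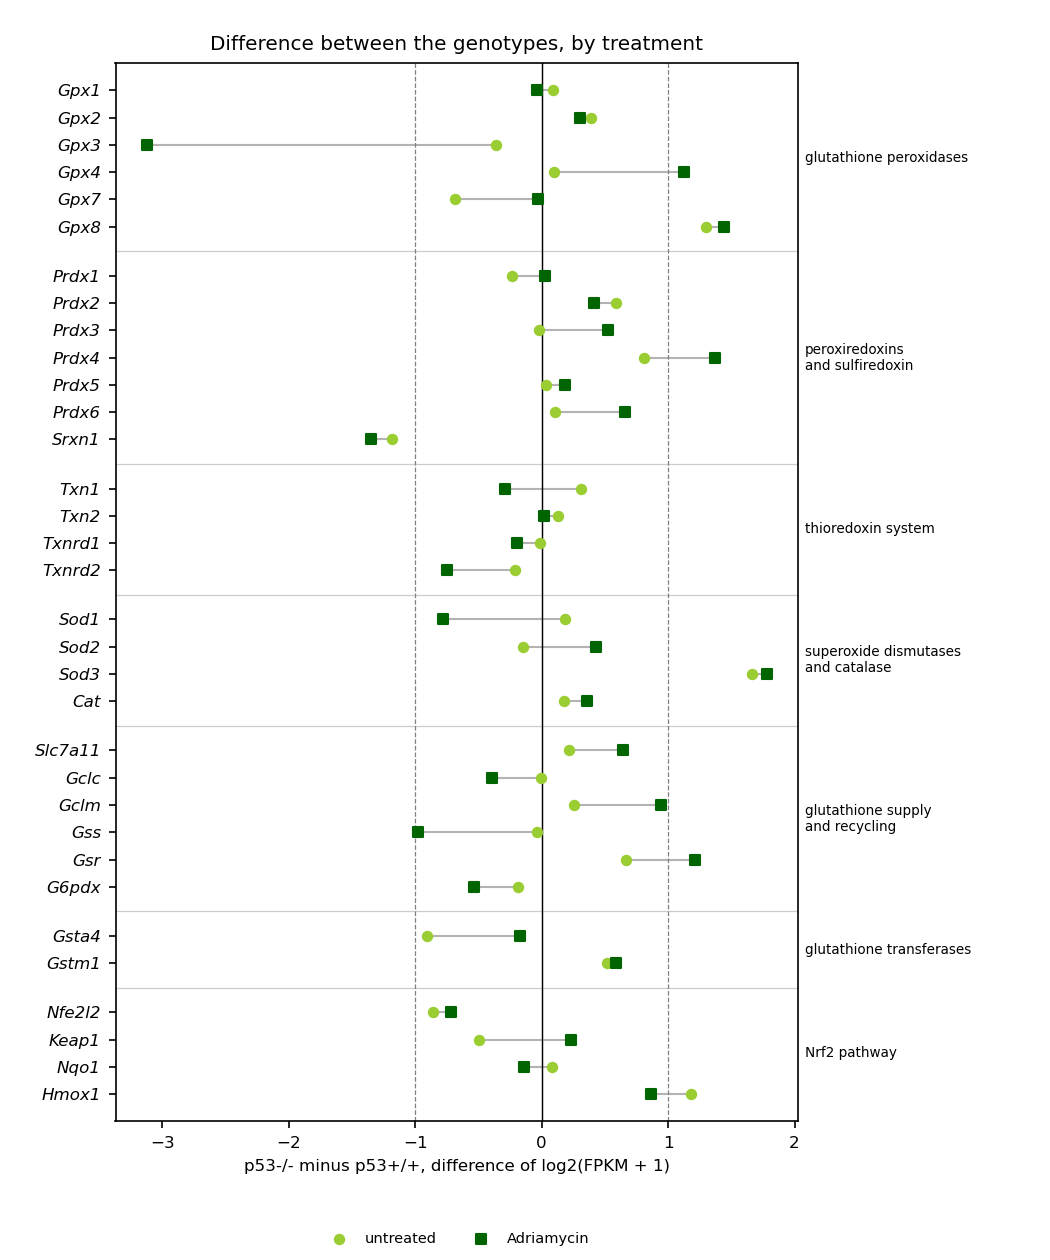
Difference between p53-/- and p53+/+ cells for each gene, on the log2(FPKM + 1) scale, untreated (circles) and after Adriamycin (squares). Points right of 0 are higher in p53-/- cells and dashed lines mark differences of 1. Sod3, Gpx8 and Srxn1 lie beyond the lines in both conditions, while Gpx3 moves from -0.36 to -3.12.

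Other redox genes were read from a wider list of 97 genes with a row, of which 88 passed the filter, some only through the libraries in which they were high. In the p53+/+ response 9 of these were higher and 1 lower, beside 11.4% and 2.78% of all genes, with a median of 0.12. Ephx1, a microsomal epoxide hydrolase, went from 6.95 to 77.6 FPKM. Gpx6, a further glutathione peroxidase, went from 0.0682 to 5.87 FPKM and passed the filter only through the treated p53+/+ library. The treated p53+/+ library was thus the only one above 1 FPKM for Gpx6. Mafk, a small Maf partner of Nrf2, went from 2.43 to 9.81 FPKM. Msrb1, a selenoprotein that repairs oxidised methionine, went from 22.6 to 63.6 FPKM. Duox1, an oxidase that makes hydrogen peroxide, went from 0.502 to 3.02 FPKM. Like Gpx6, Duox1 passed the filter only through the treated p53+/+ library, as did Ggt5, which is also among the 9 (1.81 FPKM there). Chac1, which degrades glutathione, went from 12.8 to 4.57 FPKM. In p53-/- cells 0 of the 88 were higher and 0 lower, beside 0.377% and 0.461% of all genes. Ephx1 stood at 4.05 and 4.20 FPKM there, Msrb1 at 25.5 and 23.1 FPKM and Chac1 at 28.2 and 21.9 FPKM.

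Between the genotypes the wider list had 7 genes higher and 0 lower in untreated p53-/- cells, beside 3.51% and 3.14% of all genes, and 9 higher and 8 lower after treatment, beside 6.72% and 13.0%. The metallothioneins, cysteine-rich proteins that bind zinc and copper, were among the higher ones. Mt1 stood at 345 and 344 FPKM in p53+/+ and at 1232 and 1072 FPKM in p53-/- cells, and both treated and untreated p53-/- libraries were high. Mt2 stood at 336 and 199.9 FPKM in p53+/+ and at 894 and 817 FPKM in p53-/- cells. Gstm5 stood at 5.53 and 6.20 FPKM in p53+/+ and at 17.7 and 20.03 FPKM in p53-/- cells. Gstm3, a low transcript of the same family, stood at 0.397 and 0.558 against 2.33 and 3.09 FPKM. It passed the filter only through the p53-/- libraries, in which it was higher. Cyba, a subunit of the NADPH oxidase of phagocytes and other cells, stood at 15.9 and 24.0 against 34.7 and 33.4 FPKM. In Mt1, Mt2, Gstm5, Gstm3 and Cyba both p53-/- libraries were above both p53+/+ libraries.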

How the data were processed

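Poly(A) RNA of 4 libraries was analysed, with 1 library per group. The authors deposited FPKM per transcript with lower and upper bounds, and the read coverage (signal) of each transcript, per the file headers, which follow a Cufflinks layout. CASAVA 1.8.1, TopHat2 2.0.5, TopHat, Cufflinks and the build mm9 are named in the submitters' processing notes, without roles. Neither the version of Cufflinks nor the annotation is stated in the sources used here. An exome enrichment kit appears in the labels' protocols, and its effect was not tested.

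RefSeq identifiers were named from RefSeq (GRCm38.p6) for 30227 of 30769 rows and from GENCODE M21 for 180 more, and 802 rows of short RNAs were left out. FPKM was summed per gene, and genes with at least 1 FPKM in at least 1 library (13014) were kept. Differences used log2(FPKM + 1), with steps of 1 and of 1.5-fold. The confidence level of the bounds is not stated in the sources used here and they carry no biological spread. Of the 33 members 17 had an FPKM outside them in at least 1 library. Gpx1, Prdx2, Prdx3, Prdx4, Prdx5, Prdx6, Txn1, Txn2, Sod1, Gsta4 and Hmox1 lay above theirs in every library. Aligned bases were coverage times length. Copies were GENCODE M21 transcripts of other genes at 90% identity or more over at least 50% of a member's transcript (blastn 2.17.0). Python 3.11.15, pandas 2.3.3, numpy 2.4.6 and matplotlib 3.10.9 were used, and the steps were tested on simulated data.

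The members and lists were chosen with earlier results of these data known. All 33 members are reported. Of the wider list up to 5 genes in each direction are named, by size, for the p53+/+ response and the untreated genotype difference. Those of the treated genotype difference were not named apart. The alternatives were other pseudocounts, filters, scalings and steps, the highest transcript in place of the sum, and genes within their own bounds.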

Additional observations from a re-analysis of the deposited data

Results flagged for a closer look

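Of the 33 genes, 2 had responses of opposite sign in the genotypes that differed by at least 1 on the log2(FPKM + 1) scale. Whatever their signs, 10.4% of all genes had a response difference of 1 or more, and 3.29% had one of -1 or below. The share of all genes with opposite signs was not counted. With 1 library on each side, the difference was not tested. Gpx3 was higher after Adriamycin in p53+/+ cells (2.69) and hardly moved in p53-/- cells (-0.08), a difference of 2.77. In p53-/- cells it stood at 14.3 FPKM (deposited bounds 11.6 to 14.7) untreated and 13.5 FPKM (10.8 to 13.7) treated. These bounds overlapped, so the sign of the p53-/- response is uncertain. Gpx4 was lower in p53+/+ cells (-0.36) and higher in p53-/- cells (0.66), a difference of -1.02. The Gpx4 difference no longer reached 1 in size under median ratio scaling or quantile normalization. Gpx4 also has a pseudogene copy, as given above, and its value is uncertain.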

How the results depend on the processing

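No paired analysis was possible because each group has 1 library. For the same reason no replicate could be left out. Gpx3 stayed higher in the p53+/+ response, and Sod1 lower in the p53-/- response, under every alternative that kept them. Both drop out among the 16 members within their own bounds. Of these, 0 were higher in the p53+/+ response, beside 1285 of 10624 genes. In the p53-/- response 0 were lower, beside 25, and in the response difference 0 were higher, beside 1145. Between untreated genotypes 2 were higher and 1 lower, without Hmox1, beside 373 and 323 genes. Between treated genotypes 3 were higher and 1 lower, without Gpx3, Gsr and Prdx4, beside 691 and 1431 genes. No counted difference changed sign. With a pseudocount of 0.1 FPKM, 1 member (Slc7a11) was lower in the p53+/+ response, beside 613 of 13014 genes. In the response difference 2 were lower (Gpx4 and Slc7a11), beside 758, and the members' median became 0.060. With a pseudocount of 5 FPKM, 1 member was higher and 0 lower between untreated genotypes, beside 136 and 122 of 13014 genes. Between treated ones 3 were higher, beside 336 genes. Gpx8, Sod3 and Srxn1 no longer reached 1 in untreated and Gpx8 and Sod3 in treated cells. With a filter of 5 FPKM, which kept 31 members, their median between treated genotypes was 0.026, beside 0.030 over all 9365 genes. Gpx4 lost its place in the response difference under median ratio scaling (0 members lower, beside 387 of 12995 genes). It also did so under quantile normalization (0 lower and 2 higher, with Gss, beside 609 and 1152 of 12908 genes). Quantile normalization also gave 1 member lower in the p53+/+ response (Gpx7), beside 589 genes. Under it the all-gene median went from 0.05 to -0.10 there, and from -0.02 to 0.10 between treated genotypes. At the 1.5-fold step the members higher and lower numbered 4 and 2 in the p53+/+ response and 6 and 4 between untreated genotypes. They numbered 10 and 6 between treated genotypes, and 4 and 5 in the response difference, with 2 higher in the p53-/- response. The shares of all genes at that step are given above. Sod3, Slc7a11 and Gpx8 were below 1 FPKM in at least 1 library, where few fragments stand behind a value.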

Other observations

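Of 10 genes that link p53 to redox control, a list kept apart from the 33 members, 4 were higher in the p53+/+ response (Aldh4a1, Trp53inp1, Sesn2 and Fdxr) and 0 lower, beside 11.4% and 2.78% of all genes, with a median of 0.66. In p53-/- cells 0 were higher and 0 lower, beside 0.377% and 0.461%. Fdxr, the ferredoxin reductase of mitochondria, stood at 8.86 and 28.0 FPKM in p53+/+ and at 7.11 and 6.66 FPKM in p53-/- cells. Sesn3, a sestrin, stood at 4.82 and 4.85 FPKM in p53+/+ and at 6.64 and 7.99 FPKM in p53-/- cells. In the p53+/+ response 8 of the 10 lay above 0 and 2 below, where 53.9% and 46.0% of all genes did. The 2 below were Tigar and Gls2, at -0.36 each.

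Of the 33 members 6 had copies at 90% identity or more over at least 50% of the transcript, 7 in all, and 3 of the copies had rows of their own. G6pd2, an intronless relative of G6pdx, stood at 0.505, 0.522 and 0.434 FPKM in untreated and treated p53+/+ and untreated p53-/- cells and at 5.99 FPKM in treated p53-/- cells. Prdx6b stood at 0.0135 FPKM, was listed at 0 in the next 2 libraries of that order, and stood at 0.552 FPKM in the treated p53-/- library. Gpx2-ps1 stood at 0.199, 0.136, 0.319 and 0.587 FPKM. For each of these copies the treated p53-/- library was the highest. The copies were looked up after the members' values were known.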
